A study of Mus musculus with 12 samples.

Results

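The 10 genes described here are Atf4, Atf3, Atf5, Ddit3, Ddit4, Trib3, Chac1, Nupr1, Sesn2 and Ppp1r15a. They encode transcription factors and effectors of the integrated stress response. They were chosen by name and are listed in the tables in capitals (ATF4, ATF3, ATF5, DDIT3, DDIT4, TRIB3, CHAC1, NUPR1, SESN2 and PPP1R15A). All 10 were found among the 24982 gene symbols of the count table and the 23640 of the TPM table. Transcripts were measured by RNA-seq in mouse B-ALL (B-cell acute lymphoblastic leukaemia) cells of 2 genotypes. DKO cells are Bax-/-,Bak-/-, and TKO cells are Bax-/-,Bak-/-,Mcl-1-/-, so both lack the pore-forming effectors of mitochondrial apoptosis and TKO cells also lack the anti-apoptotic protein MCL-1. Each genotype was kept for 24 h in regular or in low-glucose medium, with 3 libraries for each of the 4 groups. No second line of either genotype is named in the labels, so the genotype and the line cannot be told apart, and whether the 3 libraries came from separate cultures is not stated. The p-values therefore set the differences between groups against the scatter of these libraries, and that scatter may be technical. The series bears on how MCL-1 affects the use of fatty acids by cancer cells. The comparison of media asks how the stress genes of each line answered a limited glucose supply, and the comparison of lines asks where they differed with Mcl1 deleted.

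In the integrated stress response, kinases that sense amino acid shortage, unfolded protein, double-stranded RNA or haem shortage phosphorylate the initiation factor eIF2α. Translation of most messages then falls, while a few with upstream open reading frames, among them that of ATF4, are translated more. ATF4 binds DNA with partners of the C/EBP and AP-1 families and switches on genes of amino acid supply, redox balance and, under lasting stress, cell death. Much of the control of ATF4 lies in translation, which RNA-seq does not measure, so its transcript level is not a measure of its protein.

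The DNA word that ATF4 recognises together with a C/EBP partner, the C/EBP-ATF response element, was searched as TGATGNAA on both strands of RefSeq promoter windows (GRCm38.p6, 250 bases before to 50 after each gene's start). The matches are shown because this is the word through which ATF4 is known to act on its target genes. All 10 had a window. The word was present in the windows of Atf3, Chac1, Nupr1 and Trib3, 4 of 10 genes, and in 4.51% of the 27025 genes with a window (3.97% of 32851 windows). Of 42 known ATF4 target genes with a window, 13 held it. The cyclic AMP response element, searched as TGACGTCA on both strands, was present in Ppp1r15a alone among the 10, in none of the 42 targets and in 2.03% of all genes. The words found are printed in capitals on the strand of each gene, 5′ to 3′, where TGATGNAA reads as its reverse complement. The absence of a word says only that these letters are not in this window. For Trib3 the word lies downstream of the RefSeq start but in no annotated gene or exon.
Atf3 (chr1:191183406-191183473, minus strand, word 110 bases upstream of the start, inside the annotated Atf3 gene but in no exon): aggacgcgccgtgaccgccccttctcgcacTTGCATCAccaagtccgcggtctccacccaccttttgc
Chac1 (chr2:119351019-119351086, plus strand, word 193 bases upstream of the start, in no annotated gene): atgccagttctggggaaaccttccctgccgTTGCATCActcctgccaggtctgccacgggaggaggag
Nupr1 (chr7:126625562-126625591, minus strand, word 110 bases upstream of this start, inside an annotated Nupr1 exon): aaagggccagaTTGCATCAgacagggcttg
Trib3 (chr2:152344028-152344057, minus strand, word 14 bases downstream of the RefSeq start): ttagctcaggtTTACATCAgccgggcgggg
Ppp1r15a (chr7:45526269-45526310, minus strand, word 12 bases upstream of the start, in no annotated gene): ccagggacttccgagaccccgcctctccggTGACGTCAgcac

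Library totals ran from 22190736 to 56260867 counts, and the 10 genes were covered by 46 to 14176 counts each per library, so all 10 passed the filter on low counts. Levels are given in CPM (counts per 1000000, with library sizes adjusted by TMM), which compares a gene between samples. Mcl1, the gene deleted in TKO, read 239 ± 2.50 CPM (SD, n = 3) in regular medium in DKO, against 0.406 ± 0.0619 CPM in TKO. Bax and Bak1 transcripts were present in both lines and were lower in TKO in both media. In regular medium Bax read 17.1 ± 0.175 CPM in DKO and 6.17 ± 0.259 CPM in TKO, and Bak1 16.9 ± 1.40 and 5.30 ± 0.713 CPM. No library without those deletions is in the series. The 11 markers of early B cells summed to between 4343 and 4878 CPM in every group, but 5 of them were higher and 4 lower in TKO in regular medium. Dntt, the terminal transferase of early lymphocytes, was 400.3 ± 8.42 CPM in DKO and 23.8 ± 0.412 CPM in TKO there, and Igll1, a surrogate light chain, 743 ± 5.07 and 421.5 ± 26.8 CPM. The recombinase genes went the other way (Rag1 6.76 ± 0.169 and 22.9 ± 1.13 CPM, Rag2 1.71 ± 0.267 and 18.9 ± 2.24 CPM), as did the B cell factor Pax5 (811 ± 2.86 and 1396 ± 159 CPM). Among markers of other cells, the 7 T cell genes summed to 168.7 to 295.4 CPM, nearly all from Lck and Cd2, with Cd4 at 0 in every library, and Lck was lower in TKO (97.4 ± 3.02 against 9.04 ± 0.141 CPM in regular medium). The 7 stromal and endothelial genes summed to 91.2 to 97.4 CPM in DKO in regular medium and 162.2 to 168.1 CPM in low glucose, and to 56.5 to 59.7 and 70.6 to 74.1 CPM in TKO. This sum was higher in low glucose in both lines, as the 10 genes were. It came almost whole from Pecam1 (94.6 to 165 CPM in DKO, 58.4 to 72.6 CPM in TKO), with Col3a1 and Kdr at 0 in every library. The 8 myeloid genes summed to at most 4.53 CPM, with Lyz2 lower in TKO (in regular medium 0.427 ± 0.114 against 3.17 ± 0.0887 CPM), and the 8 erythroid and megakaryocytic genes to at most 1.02 CPM. The part of these genes in the results was not tested. In bulk RNA, fewer cells expressing a gene and less RNA per cell cannot be told apart. TKO replicate 2 in both media and TKO replicate 3 in low glucose stood apart, at a median absolute log2 deviation from their group mean of 0.0693, 0.075 and 0.0716 over 2512 genes, against 0.033 to 0.0396 in the remaining TKO libraries and at most 0.0217 in DKO.

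In low glucose all 10 genes rose in DKO, and all 10 rose in TKO. A gene was called where the adjusted p of edgeR's quasi-likelihood test, taken over all 11988 genes tested, was under 0.05. In DKO 31.6% of all genes were called higher, and in TKO 22.0%. The median log2 fold change of the 10 genes was 1.70 in DKO and 1.17 in TKO, beside 0.01 over all genes in each line. The libraries of the 2 media did not overlap for any of the 10 genes in either line, which was so in the higher direction for 37.6% of all genes in DKO and 24.2% in TKO. Fitted on the 2 TKO groups alone, 1743 genes were called higher in TKO in place of 2632. Scaling by library totals alone moved the median of all genes in DKO to 0.109 and raised the share of higher genes among those called from 50.4% to 62.7% in DKO and from 55.1% to 65.1% in TKO. With that scaling and with DESeq2 size factors, all 10 genes were still higher in both lines.

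**Figure D1:**
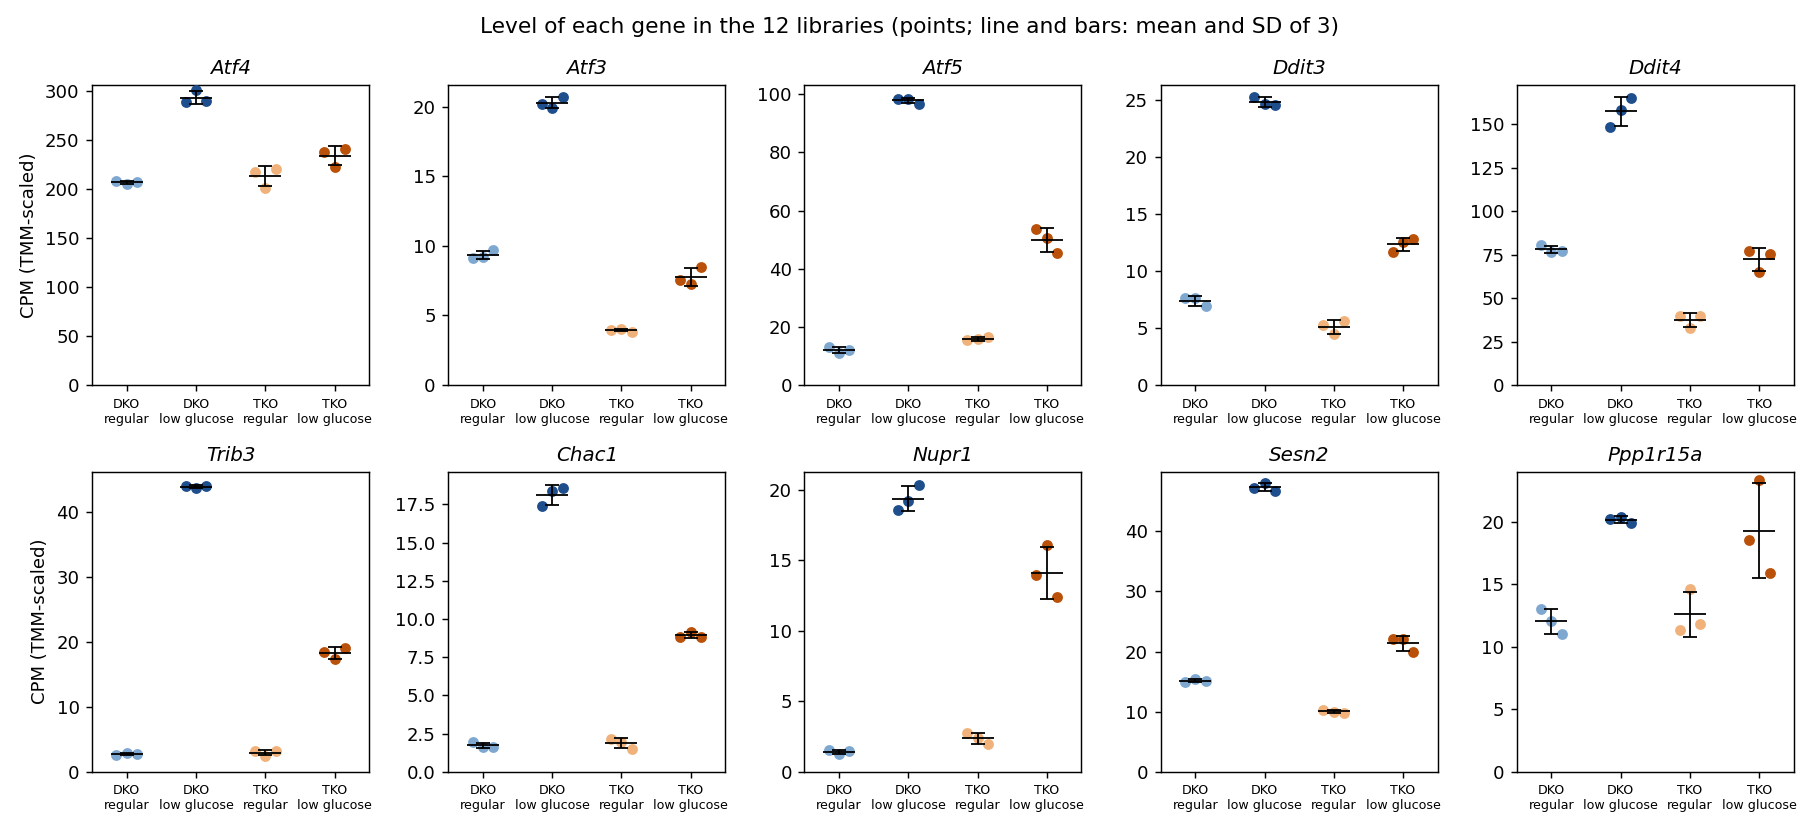
Each panel plots 1 gene in CPM (linear axis from 0) for the 12 libraries as points, with the mean and SD of each group of 3. Points in low glucose lie above those in regular medium for each gene within each line, and the 2 Atf4 groups of TKO nearly touch (220.4 against 222.9 CPM at the nearest points).

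Per length of transcript (TPM, which allows genes to be compared), Atf4 was the most abundant of the 10 in all 4 groups and Ddit4, an inhibitor of the growth kinase mTORC1, the next. Atf4 had 245 ± 0.518 TPM and Ddit4 94.9 ± 2.19 TPM in DKO in regular medium (SD, n = 3). There the order went on with Ddit3 (21.4 TPM), Atf5 (11.98), Sesn2 (10.9), Ppp1r15a (10.02), Atf3 (9.43), Nupr1 (7.02), Trib3 (2.71) and Chac1 (2.29). Neighbours from Atf5 to Atf3 in this order, and Trib3 and Chac1, overlapped between libraries. The order changed in DKO in low glucose. Atf5 (99.7 TPM) and Nupr1 (98.6 TPM) overlapped below Ddit4 (195.4 TPM), followed by Ddit3 (73.6), Trib3 (43.3), Sesn2 (34.8), Chac1 (24.5), Atf3 (20.9) and Ppp1r15a (17.2), whose libraries did not overlap with those of their neighbours. In TKO in regular medium Atf4 (262.4 TPM) and Ddit4 (47.4 TPM) were followed by Atf5 (16.6), Ddit3 (15.4), Nupr1 (12.3) and Ppp1r15a (10.9), which overlapped one after the other, then by Sesn2 (7.525) and Atf3 (4.13), and by Trib3 (2.96) and Chac1 (2.597), which overlapped. In TKO in low glucose Ddit4 (94.2 TPM) and Nupr1 (75.1 TPM) overlapped, and Atf5 (53.1), Ddit3 (38.2), Trib3 (18.9), Ppp1r15a (17.1), Sesn2 (16.4), Chac1 (12.7) and Atf3 (8.36) followed. Trib3, Ppp1r15a and Sesn2 were not separated from their neighbours there.

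Atf4 (mm10, chromosome 15, 80255184 to 80257541), the central transcription factor of the response, read 209, 205.5 and 207 CPM in the 3 DKO libraries in regular medium and 289, 301.5 and 290.4 CPM in low glucose. In TKO it read 218, 202 and 220.4 CPM in regular medium and 238, 223 and 241.5 CPM in low glucose. The DKO groups were far apart, while the lowest TKO library in low glucose was just above the highest in regular medium. The rise was 1.42-fold in DKO (log2 0.50 ± 0.0432, SE, adjusted p = 1.88e-07) and 1.10-fold in TKO (log2 0.13 ± 0.0436, adjusted p = 0.0245). The TKO rise lost its call without TKO regular-medium replicate 2 (log2 0.09, adjusted p = 0.0867), low-glucose replicate 1 (0.12, 0.0769) or low-glucose replicate 3 (0.11, 0.0683), on the 2 TKO groups alone (0.12, 0.189) and with no filter on low counts (0.11, 0.115).

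Atf5 (chromosome 7, 44812256 to 44816658) encodes a relative of ATF4 whose translation is also raised through upstream open reading frames. It read 13.02, 10.9 and 12.05 CPM in DKO in regular medium and 98.4, 98.4 and 96.7 CPM in low glucose. The TKO libraries read 15.4, 15.8 and 16.6 CPM in regular medium and 53.6, 50.6 and 45.3 CPM in low glucose. TKO thus began higher and ended lower than DKO, with no overlap between any of the 4 groups. The log2 change was 3.03 ± 0.0695 in DKO (adjusted p = 7.74e-13) and 1.64 ± 0.0714 in TKO, a 3.12-fold rise (adjusted p = 2.56e-09). Atf5 overlaps Nup62 on the opposite strand by 571 bases, and the strand setting of the counting is not given. Nup62 itself fell in low glucose (log2 -0.39 in DKO and -0.22 in TKO).

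Ddit3 (chromosome 10, 127290774 to 127296288) encodes CHOP, a C/EBP-family factor linked to stress-induced death. In DKO it read 7.58, 7.59 and 6.89 CPM in regular medium and 25.2, 24.6 and 24.5 CPM in low glucose. The TKO libraries read 5.25, 4.44 and 5.63 CPM and then 11.7, 12.5 and 12.8 CPM. All 4 groups were separate, with DKO in low glucose highest and TKO in regular medium lowest. The rise was 3.38-fold in DKO (log2 1.76 ± 0.0661, adjusted p = 7.19e-11) and 2.40-fold in TKO (log2 1.26 ± 0.0824, adjusted p = 9.25e-08). Mars, which overlaps Ddit3 by 68 bases on the opposite strand and had more counts, was not called between media in either line (log2 0.02 in DKO and -0.10 in TKO).

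Atf3 (chromosome 1, 191170296 to 191218039), a stress-induced factor that often represses its targets, had another order of groups. It read 9.14, 9.21 and 9.71 CPM in DKO in regular medium and 20.2, 19.9 and 20.7 CPM in low glucose. The TKO libraries read 3.93, 4.01 and 3.84 CPM in regular medium and 7.57, 7.25 and 8.46 CPM in low glucose. Every TKO library, in either medium, was below every DKO library. The rise with low glucose was 2.17-fold in DKO (log2 1.11 ± 0.0564, adjusted p = 1.01e-09) and 1.99-fold in TKO (SE of the log2 change 0.0796, adjusted p = 6.14e-07).

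Trib3 (chromosome 2, 152337422 to 152344032) encodes a pseudokinase that binds ATF4 and dampens its activity. In DKO it read 2.66, 2.94 and 2.80 CPM in regular medium and 44.1, 43.6 and 44.0 CPM in low glucose. In TKO it read 3.15, 2.48 and 3.19 CPM and then 18.5, 17.4 and 19.0 CPM. The lines overlapped in regular medium and were far apart in low glucose. Among all genes tested its rise was the 10th largest in DKO (log2 3.97 ± 0.0679, adjusted p = 5.9e-14) and the 65th largest in TKO (6.20-fold, log2 2.63 ± 0.0801, adjusted p = 7.69e-11).

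Ppp1r15a (chromosome 7, 45522916 to 45526268) encodes GADD34, which brings protein phosphatase 1 to eIF2α and so ends the response. It read 13.04, 12.03 and 11.04 CPM in DKO in regular medium and 20.2, 20.4 and 19.9 CPM in low glucose. In TKO it read 11.4, 14.6 and 11.8 CPM and then 18.6, 23.4 and 15.9 CPM, with replicate 2, one of the libraries that stood apart, highest in both media. The lines overlapped in both media. The rise was 1.68-fold in DKO (log2 0.75 ± 0.114, adjusted p = 5.32e-05) and 1.51-fold in TKO (log2 0.60 ± 0.124, adjusted p = 0.00174).

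Nupr1 (chromosome 7, 126623249 to 126630861) encodes a small chromatin-associated stress protein. It read 1.51, 1.25 and 1.47 CPM in DKO in regular medium and 18.6, 19.2 and 20.3 CPM in low glucose. The TKO libraries read 2.75, 2.40 and 1.95 CPM and then 13.9, 16.1 and 12.4 CPM. TKO was above DKO in regular medium and below it in low glucose, without overlap in either. The rise was 13.7-fold in DKO (log2 3.78 ± 0.116, adjusted p = 1.55e-11) and 5.90-fold in TKO (log2 2.56 ± 0.125, adjusted p = 7.48e-09).

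Chac1 (chromosome 2, 119351229 to 119354381) encodes an enzyme that breaks down glutathione. In DKO it read 1.94, 1.60 and 1.63 CPM in regular medium and 17.4, 18.4 and 18.6 CPM in low glucose. Its TKO levels were 2.17, 1.97 and 1.498 CPM and then 8.84, 9.17 and 8.81 CPM. The lines overlapped in regular medium, and in low glucose every TKO library lay below every DKO library. The log2 change was 3.40 ± 0.0888 in DKO (adjusted p = 3.01e-12) and 2.25 ± 0.110 in TKO, a 4.76-fold rise (adjusted p = 7.48e-09).

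Ddit4 and Sesn2 both encode inhibitors of mTORC1. Ddit4 (chromosome 10, 59949669 to 59951834) acts through the TSC complex and read 80.5, 76.3 and 77.1 CPM in DKO in regular medium and 148, 158 and 165 CPM in low glucose. The TKO libraries read 39.8, 32.8 and 39.7 CPM and then 77.0, 64.8 and 75.4 CPM. TKO in low glucose thus overlapped DKO in regular medium. The rise was 2.02-fold in DKO (log2 1.01 ± 0.0732, adjusted p = 3.3e-08) and 1.94-fold in TKO (log2 0.95 ± 0.0784, adjusted p = 7.59e-07).

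Sesn2 (chromosome 4, 132492032 to 132510501), which acts as a leucine sensor on the GATOR complex, read 14.9, 15.4 and 15.1 CPM in DKO in regular medium and 47.2, 48.0 and 46.7 CPM in low glucose. In TKO it read 10.3, 9.98 and 9.77 CPM and then 22.1, 22.1 and 19.97 CPM. All 4 groups were separate. Sesn2 overlaps the annotated gene Gm12981, which has no row in the count table, by 6089 bases on the same strand. This overlap is of whole gene spans, and whether exons are shared was not looked at. Reads from any shared exon could not be told apart by strand. The rise was 3.12-fold in DKO (log2 1.64 ± 0.0478, adjusted p = 8.56e-12) and 2.13-fold in TKO (log2 1.09 ± 0.0562, adjusted p = 1.16e-08).

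The response to low glucose was smaller in TKO than in DKO for 7 of the 10 genes, by the interaction test in edgeR, where 12.1% of all genes had a lower and 17.6% a higher response in TKO. Without DKO low-glucose replicate 2, 928 genes in place of 1447 had a lower response, and the same number of the 10 genes, 7, was called. The median difference of the log2 responses (TKO minus DKO) was -0.52 over the 10 genes and 0.03 over all genes. With library totals in place of TMM, 45.6% in place of 59.3% of the genes called had the higher response in TKO, and all 7 were still lower. The differences were largest for Atf5 (-1.39 ± 0.0988, SE, adjusted p = 3.41e-07), Trib3 (-1.34 ± 0.117, adjusted p = 1.92e-06), Nupr1 (-1.22 ± 0.194, adjusted p = 0.000385) and Chac1 (-1.15 ± 0.159, adjusted p = 0.000123), the 4 genes with the largest rises in DKO. The TKO fold of these genes was 38.2% to 45.2% of the DKO fold. Sesn2 (-0.55 ± 0.0742, adjusted p = 9.49e-05), Ddit3 (-0.50 ± 0.108, adjusted p = 0.00343) and Atf4 (-0.37 ± 0.0613, adjusted p = 0.000525) differed by less.

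For Atf3, Ddit4 and Ppp1r15a no difference in response was called. The difference was -0.12 for Atf3 (95% interval -0.33 to 0.09, adjusted p = 0.447), -0.06 for Ddit4 (-0.29 to 0.17, 0.728) and -0.15 for Ppp1r15a (-0.51 to 0.21, 0.548). The interval of Ppp1r15a spans differences as large as that of Atf4. On the log2 scale, the TKO response was 66.3% to 67.8% of the DKO response for Trib3, Chac1, Nupr1 and Sesn2, 54.2% for Atf5, 71.8% for Ddit3 and 26.7% for Atf4. Atf3 (89.3%) and Ddit4 (94.3%) were nearer to the DKO response, and Ppp1r15a stood at 79.9%. Among the 4 genes with the C/EBP-ATF element in their window, Trib3, Nupr1 and Chac1 had the largest rises of the 10 in each line, and Atf3 had the seventh largest. The relation of the element to the response was not tested.

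**Figure D2:**
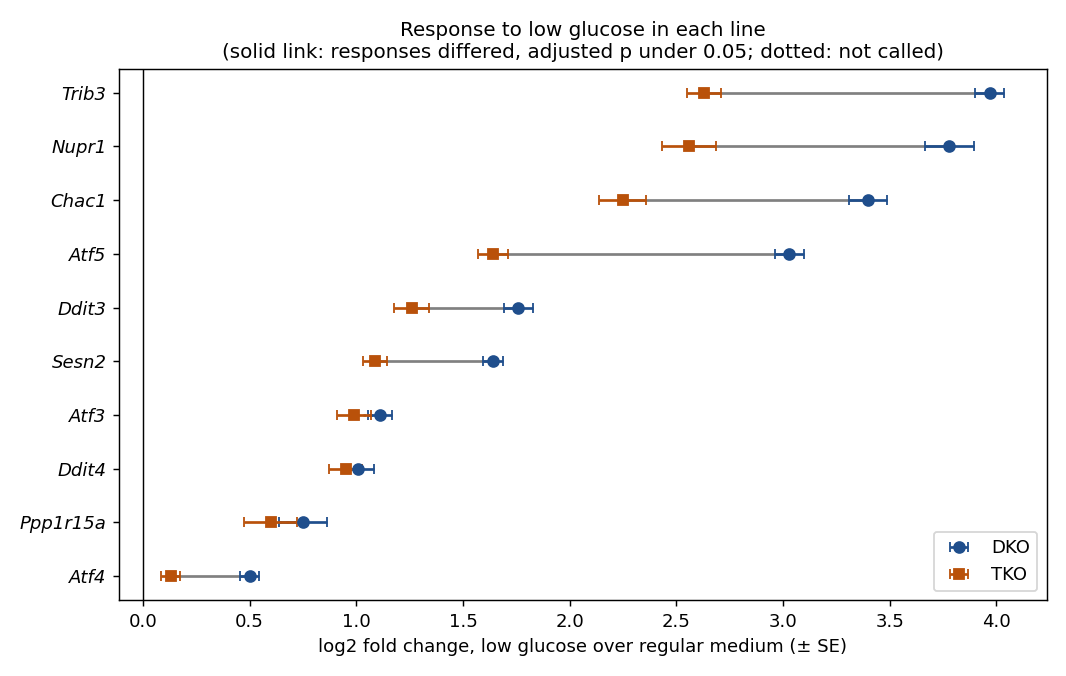
Each row is 1 gene, with the log2 fold change of low glucose over regular medium (± SE) in DKO (circles) and TKO (squares). The 7 pairs joined by a solid link differed in the interaction test, and for Atf3, Ddit4 and Ppp1r15a no difference was called.

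In regular medium, the lines differed in 6 of the 10 genes, 4 lower and 2 higher in TKO, where 33.4% of all genes were called lower and 28.3% higher. The median of the 10 genes was 0.05 and that of all genes -0.01. The lower genes were Atf3 (2.38-fold, log2 -1.25 ± 0.0751, adjusted p = 2.15e-09), Ddit4 (2.08-fold, log2 -1.06 ± 0.0776, adjusted p = 2.24e-08), Sesn2 (1.51-fold, log2 -0.60 ± 0.0563, adjusted p = 3.61e-07) and Ddit3 (1.43-fold, log2 -0.51 ± 0.0847, adjusted p = 0.000107). Nupr1 was 1.67-fold higher in TKO (log2 0.74 ± 0.173, adjusted p = 0.00189) and Atf5 1.33-fold higher (log2 0.41 ± 0.0763, adjusted p = 0.000301). Atf4 (log2 0.04, adjusted p = 0.411), Trib3 (0.08, 0.557), Chac1 (0.12, 0.466) and Ppp1r15a (0.06, 0.694) were not called. Without both TKO replicate 2 libraries Atf4 was called higher in TKO as well (log2 0.08, adjusted p = 0.029), which made 3 higher and 4 lower. The regular-medium values of Chac1 and Ppp1r15a changed sign without a single TKO library, as given among the limits.

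In low glucose, 9 of the 10 genes were lower in TKO and none was higher, where 37.4% of all genes were called lower and 37.2% higher. The median log2 difference of the 10 genes was -1.02, against -0.00 over all genes. Atf3 was lowest relative to DKO (log2 -1.37 ± 0.0605, adjusted p = 4.99e-11), followed by Trib3 (-1.26 ± 0.0555, adjusted p = 5.08e-11), Sesn2 (-1.15 ± 0.0478, adjusted p = 2.62e-11) and Ddit4 (-1.11 ± 0.0741, adjusted p = 5.26e-09). Chac1 was 2.03-fold lower (log2 -1.02 ± 0.0727, adjusted p = 1.1e-08), Ddit3 2.01-fold (log2 -1.01 ± 0.0648, adjusted p = 3.58e-09) and Atf5 close to that (log2 -0.97 ± 0.0629, adjusted p = 3.73e-09). Nupr1 was 1.39-fold lower (log2 -0.47 ± 0.0867, adjusted p = 0.000192) and Atf4 1.25-fold (log2 -0.33 ± 0.0433, adjusted p = 9.3e-06). Nupr1 and Atf5 were thus higher in TKO in regular medium and lower in low glucose, and their difference in response was called. These comparisons share libraries with those of the media.

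Ppp1r15a was not called in low glucose (log2 -0.09, 95% interval -0.33 to 0.15, adjusted p = 0.489). It was called lower in TKO without TKO low-glucose replicate 2 (log2 -0.23, adjusted p = 0.0341) and without both TKO replicate 2 libraries (-0.23, 0.00617), which made all 10 lower, and it was 0.03 (0.786) without TKO low-glucose replicate 3. The authors' deposited table gave the same directions as this fit for the 10 genes in low glucose, from log2 -1.37 for Atf3 to -0.06 for Ppp1r15a, whose adjusted p there was 0.69. In the authors' deposited table for regular medium, Atf4 (adjusted p = 0.231), Ppp1r15a (0.574), Chac1 (0.619) and Trib3 (0.666) were the 4 genes above 0.05.

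**Figure D3:**
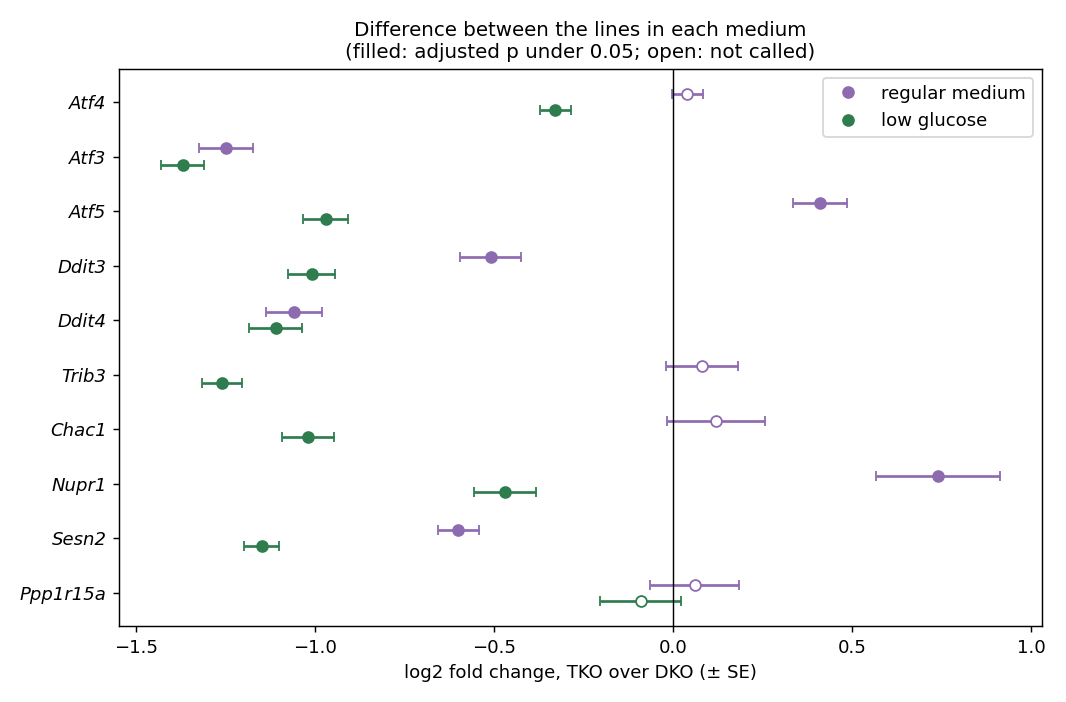
Each row is 1 gene, with the log2 fold change of TKO over DKO (± SE) in regular medium and in low glucose. Filled points passed an adjusted p of 0.05. In low glucose 9 filled points lie below 0, and in regular medium 4 lie below and 2 above.

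Upstream of ATF4, transcripts of the eIF2α machinery were more often called lower than higher in low glucose. Of all genes, 31.1% were called lower in DKO and 17.9% in TKO, and 31.6% and 22.0% were called higher. These shares stand beside each count between media below. For each count between the lines, the shares of all genes were 28.3% up and 33.4% down (TKO over DKO, regular medium). With low glucose they were 37.2% up and 37.4% down, and for the difference in response 17.6% up and 12.1% down. Whether the counts of a list departed from these shares was not tested. Of 18 genes for the eIF2α kinases, eIF2 and its exchange factor eIF2B, the phosphatase and their regulators, 2 were called higher and 9 lower in DKO, and 1 higher and 9 lower in TKO (median log2 -0.12 in each). Eif2ak2, the kinase PKR that senses double-stranded RNA, was the 1 kinase called higher, from 108.5 ± 3.01 to 147.6 ± 4.25 CPM in DKO and from 72.2 ± 3.19 to 95.0 ± 3.22 CPM in TKO (SD, n = 3). Eif2ak3, the endoplasmic reticulum kinase PERK, was not called between media in either line (log2 -0.06 and -0.02). Eif2ak4, the amino acid sensor GCN2, was not called in DKO (-0.03) and was lower in TKO (-0.17, adjusted p = 0.00528). Eif2ak1, the haem-regulated kinase, was lower in DKO (-0.15, adjusted p = 0.0491) and was not called in TKO (-0.06). Eif2s1, which encodes eIF2α, fell from 284 ± 3.19 to 189 ± 3.87 CPM in DKO and from 299.9 ± 16.4 to 256 ± 10.03 CPM in TKO, and the difference in response was called (log2 0.36, adjusted p = 0.00072). Impact, an inhibitor of GCN2, rose in DKO (log2 0.56) and was not called in TKO (0.12), and the responses differed (-0.44, adjusted p = 0.00095).

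Between the lines, the 18 upstream genes split into 4 higher and 4 lower in TKO in regular medium and 6 higher and 4 lower in low glucose. Dele1, which relays mitochondrial stress to the haem-regulated kinase, was not called between media in either line and was higher in TKO, at 77.4 ± 1.36 against 48.1 ± 1.39 CPM in regular medium (log2 0.69 ± 0.0403) and at 80.9 ± 2.27 against 48.3 ± 1.24 CPM in low glucose (0.74 ± 0.0403). It lies on chromosome 18, whose 311 tested genes had a median of 0.53 and 0.61 on this log2 scale in the 2 media, while every other autosome had a median from -0.06 to 0.04. None of the 10 genes lies on chromosome 18. Ppp1r15b, the constitutive paralog of Ppp1r15a, was not called between media (log2 0.10 in DKO and -0.04 in TKO).

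Of 16 possible dimer partners and co-activators of ATF4, 12 were tested. In low glucose 8 were higher and none lower in DKO (median log2 0.56), and 6 were higher and none lower in TKO (0.26). Jun, an AP-1 subunit, rose in both lines (log2 1.18 in DKO and 0.68 in TKO), and the responses differed (-0.50, adjusted p = 0.0138). Jdp2, an AP-1 repressor, rose from 11.3 ± 0.257 to 36.0 ± 1.04 CPM in DKO and from 3.87 ± 0.582 to 13.9 ± 2.67 CPM in TKO. Like Atf3, it was lower in TKO in both media (log2 -1.56 and -1.40), with no difference in response called (0.16, adjusted p = 0.53). Across the 12 partners, 5 were higher and 2 lower in TKO in regular medium, 2 higher and 5 lower in low glucose, and 3 had a lower response in TKO (Jun, Jund and Nfe2l1).

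Of 15 paralogs of the 10 genes, 13 were tested, with 3 higher and 5 lower in DKO in low glucose and 4 higher and 3 lower in TKO. Sesn3 rose from 26.2 ± 0.766 to 44.1 ± 1.90 CPM in DKO and from 26.97 ± 0.815 to 34.8 ± 1.39 CPM in TKO (log2 0.75 and 0.37), and its responses differed (-0.38, adjusted p = 0.00102). Sesn1, the p53-driven sestrin, was not called between media in either line. Trib1 went the other way from Trib3 in DKO, from 58.2 ± 0.530 to 45.0 ± 0.418 CPM, and was lower in TKO (8.30 ± 0.999 and 8.97 ± 0.0466 CPM). Atf6, the factor of another stress arm, rose in DKO (log2 0.36) and was not called in TKO (-0.00), a difference in response of -0.36 (adjusted p = 0.00123). Between the lines, 2 paralogs were higher and 6 lower in TKO in regular medium, 3 higher and 7 lower in low glucose, and 3 had a higher and 3 a lower response.

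Among genes known as ATF4 targets, those of amino acid transport had the highest median in each line. The synthesis genes and the other stress genes are not ranked against each other, since both DKO medians count genes at or near 0 counts in DKO. Of 10 tested transporters, 9 were higher and 1 lower in DKO in low glucose (median log2 0.89), and 6 were higher and none lower in TKO (0.39). The glycine transporter gene Slc6a9 rose from 5.39 ± 0.375 to 55.7 ± 1.87 CPM in DKO and from 5.11 ± 0.615 to 21.0 ± 1.05 CPM in TKO, a difference in response of -1.32 (adjusted p = 1.38e-06). Slc3a2, the shared heavy chain of several amino acid exchangers, rose from 138 ± 2.97 to 329 ± 2.26 CPM and from 130.1 ± 1.90 to 189 ± 11.8 CPM. The response was lower in TKO for 8 transporters and higher for none. In low glucose 9 transporters were lower in TKO and 1 was higher, while in regular medium 3 were lower and 3 higher.

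Of 12 tested genes of amino acid synthesis and one-carbon metabolism, 7 were higher and 2 lower in DKO in low glucose (median log2 0.70), and 8 were higher and 1 lower in TKO (0.36). The DKO median counts Aldh1l2 (log2 1.75, not called), at 0 to 3 counts in each DKO library. Asns, asparagine synthetase, rose from 93.5 ± 1.59 to 215 ± 1.90 CPM in DKO and from 120.7 ± 6.03 to 195.5 ± 6.17 CPM in TKO. Cth, which makes cysteine, rose from 2.15 ± 0.297 to 22.6 ± 0.601 CPM in DKO and from 15.2 ± 1.63 to 47.0 ± 4.97 CPM in TKO, so that it was higher in TKO in both media (log2 2.83 and 1.07) while its response was lower (-1.76, adjusted p = 1.31e-06). Gpt2, an alanine aminotransferase of mitochondria, rose in both lines and was lower in TKO in both media (log2 -1.64 and -2.24). For 7 genes the response was lower in TKO, and for 1, Psat1, it was higher (log2 0.89, adjusted p = 1.53e-07). Psat1, a gene of serine synthesis, fell from 120.7 ± 2.91 to 68.2 ± 0.550 CPM in DKO (log2 -0.82). It was not called between media in TKO (263 ± 5.43 and 274.9 ± 4.6 CPM), and it was higher in TKO in both media (log2 1.12 and 2.01). Between the lines 7 were higher and 1 lower in TKO in regular medium, and 5 higher and 5 lower in low glucose.

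Of 14 tested aminoacyl-tRNA synthetase and tRNA export genes, 8 were higher and 2 lower in each line in low glucose, with medians of 0.17 in DKO and 0.12 in TKO. Sars, the seryl-tRNA synthetase, changed most (log2 0.91 in DKO and 0.59 in TKO). In TKO 7 were higher and 1 lower in regular medium and 4 higher and 2 lower in low glucose, and the response was higher for 1 and lower for 4. Of 16 other stress genes tested, 11 were higher and 2 lower in DKO (median log2 0.50), and 13 higher and 1 lower in TKO (0.35). The DKO median counts Vldlr and Stc2, at 0 counts in all 6 DKO libraries, as log2 0.0. Their DKO response and their difference in response could not be measured. Gadd45a, a gene of growth arrest, rose from 5.02 ± 0.223 to 22.1 ± 0.760 CPM in DKO and from 4.86 ± 0.532 to 11.6 ± 0.456 CPM in TKO. Sqstm1, the autophagy receptor p62, rose 1.21 in DKO and 0.54 in TKO on the log2 scale. Ero1l, an oxidase of disulfide formation in the endoplasmic reticulum, rose more in TKO (0.84) than in DKO (0.36), and this difference was called (0.48, adjusted p = 3.3e-05). Vldlr was at 0 counts in all 6 DKO libraries and rose in TKO from 0.680 ± 0.238 to 8.08 ± 0.924 CPM, at least 357-fold higher than in DKO in low glucose (3 counts over the DKO group). Of these 16 genes, 6 were higher and 6 lower in TKO in regular medium, 6 higher and 8 lower in low glucose, and the response was higher for 2 and lower for 8.

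**Figure D4:**
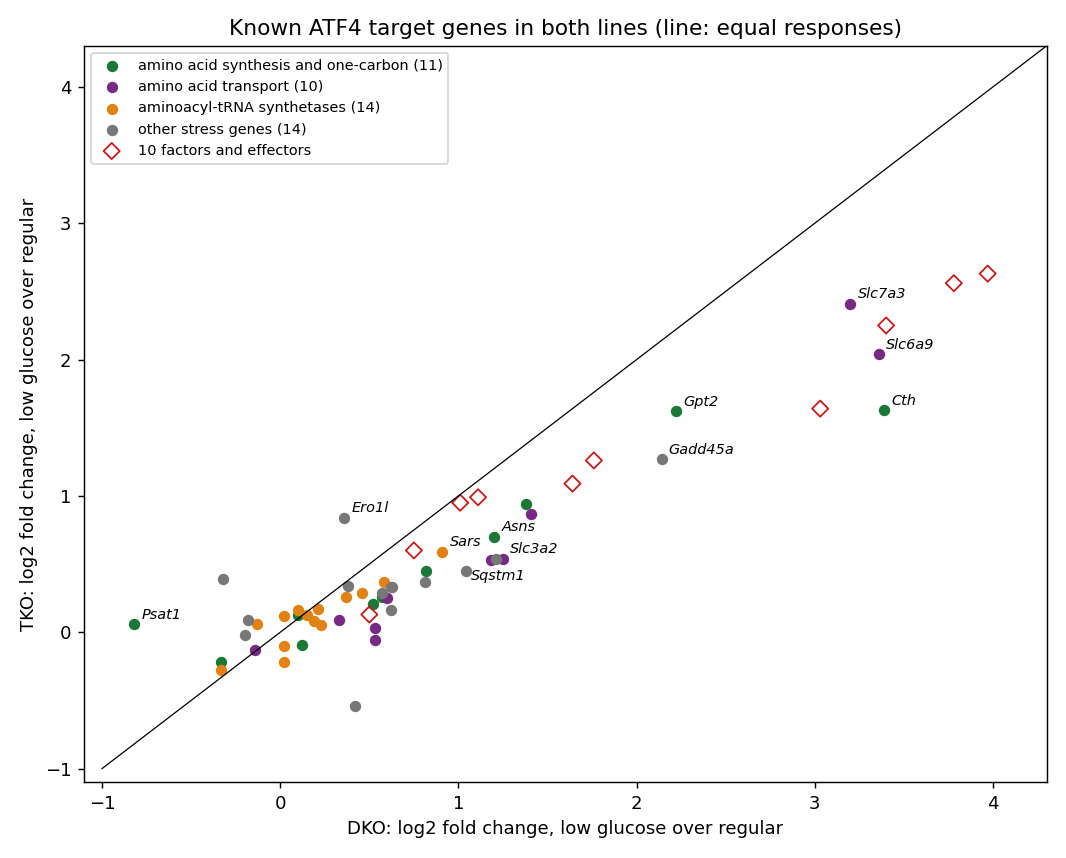
Each point is 1 gene, with its log2 fold change of low glucose over regular medium in DKO (x) and in TKO (y). Colours mark 4 groups of known ATF4 targets, diamonds mark the 10 genes described above, and the line marks equal responses. Vldlr, Stc2 and Aldh1l2, with 0 to 3 counts in each DKO library, are left out. The 10 diamonds lie below the line. Targets above it include Psat1, Ero1l, Jmjd6 and Eprs, whose higher response in TKO was called, and others for which no difference was called.

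Lists of neighbouring stress pathways had lower medians in DKO in low glucose than the transport and synthesis genes. Of 19 genes of the XBP1 and ATF6 arms of the unfolded protein response, 12 were higher and none lower in DKO in low glucose (median log2 0.15), and 4 were higher and 5 lower in TKO (-0.00). Xbp1, the transcription factor of the IRE1 arm, rose from 360.5 ± 1.77 to 549 ± 7.23 CPM in DKO and from 47.5 ± 2.43 to 66.6 ± 1.51 CPM in TKO, and was 7.59-fold lower in TKO in regular medium and 8.24-fold lower in low glucose, with no difference in response called (log2 -0.12, adjusted p = 0.137). Ern1, which encodes IRE1, rose in DKO (log2 0.59), was not called in TKO (0.16), and was lower in TKO in both media (-2.60 and -3.02). Pdia4, a disulfide isomerase, rose in both lines (0.43 and 0.18) and was also lower in TKO (-1.56 and -1.81). Derl3, a factor of endoplasmic reticulum degradation, rose from 2.58 ± 0.240 to 6.85 ± 0.453 CPM in DKO and read 0.382 ± 0.0588 and 0.312 ± 0.0772 CPM in TKO. Hspa5, the chaperone BiP, was not called between media in either line (log2 0.05 and -0.07). All but 3 of the list were lower in TKO in regular medium (16 of 19), 18 were lower in low glucose, and 8 had a lower response. Of 14 p53 targets, 7 were higher and 2 lower in DKO (median log2 0.30), and 7 higher and 3 lower in TKO (0.13). The lists share genes: Bbc3, Pmaip1 and Tnfrsf10b were also counted among the other stress genes, and Sesn1 among the paralogs. Atf6 was counted both as a paralog and in the unfolded protein response, and Ppp1r15b both as a paralog and among the upstream genes. Cdkn1a, the cell cycle inhibitor p21, rose in both lines (log2 0.56 and 0.57), with a difference in response of 0.01 (adjusted p = 0.92). Phlda3, an inhibitor of AKT, and Tnfrsf10b, a TRAIL death receptor, were nearly absent in DKO (at most 0.179 and 0.0926 CPM on average) and higher in TKO, at 17.6 ± 1.98 and 7.80 ± 0.252 CPM in regular medium. Of the p53 targets 2 were higher and 11 lower in TKO in regular medium, 3 higher and 9 lower in low glucose, and 2 had a higher and 2 a lower response. The lower genes in both media include Cdkn1a (log2 -1.01 and -1.0) and Bax (-1.47 and -1.7), a gene deleted in both genotypes.

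The 11 proteases and chaperones of the mitochondrial stress response all fell in DKO in low glucose (median log2 -0.37), and 8 fell and none rose in TKO (-0.18), where 31.1% and 17.9% of all genes were called lower. Hspd1, the chaperonin HSP60, fell from 1119 ± 13.97 to 577 ± 9.09 CPM in DKO and from 1204 ± 73.4 to 928 ± 37.1 CPM in TKO. Lonp1, the matrix protease, fell in DKO (log2 -0.53) and was not called in TKO (0.02), and its responses differed (0.55, adjusted p = 0.000517). The response was higher in TKO for 6 of the 11 and lower for none, the reverse of the sign in 7 of the 10 genes above. Between the lines 4 were higher and 2 lower in TKO in regular medium, and 8 higher and none lower in low glucose. Of these genes Hspa9 and Afg3l2 also lie on chromosome 18. Txnip, a target of the glucose-sensing factors MondoA and ChREBP, was the 1 tested gene of a list of 2. It rose in DKO (log2 0.56) and had a log2 change of -0.01 in TKO. Its response differed between the lines (-0.58, adjusted p = 3.27e-06), and it was lower in TKO in both media (-0.48 and -1.06).

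Of 9272 other genes that averaged 5 CPM or more, the 10 whose log2 CPM over the 12 libraries were most like the mean standardised profile of the stress genes had a Pearson r of 0.9904 to 0.9944, which is a description, since the libraries fall into 4 groups. They were SSFA2, Cd69, Gimap8, Csf2rb, Trim34a, Slc6a9, Foxo1, Rhbdd1, Gadd45a and Bhlhe41. Cd69, a lymphocyte activation antigen, rose 3.83-fold in DKO and 2.91-fold in TKO, and Foxo1, a transcription factor of B cell development, rose 2.10-fold and 1.62-fold. Slc6a9 and Gadd45a, both known ATF4 targets, rose 10.3-fold and 4.41-fold in DKO and 4.12-fold and 2.42-fold in TKO.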

How the data were processed

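Per the submitters' processing notes, the authors used STAR 2.7.3a, the mm10 build and DESeq2 1.22.1. Libraries were made with a strand-specific mRNA kit, per the labels' protocols. The counter, its annotation, its strand setting and its treatment of reads shared by paralogs are not given in the sources used here. The deposited table of counts holds whole numbers, not normalized. The deposited TPM are scaled by transcript length and sum to 1000000 per library. The authors' deposited DESeq2 tables hold, per the file headers, a mean expression and a test statistic (each a score), a log2 fold change with its error, and p-values, raw and adjusted.

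Counts were tested with edgeR 4.0.16 in R 4.3.3: filterByExpr (count minimum 10, total minimum 15; 11988 genes), TMM, 1 quasi-likelihood model of all 12 libraries with 4 group means (8 residual degrees of freedom), and Benjamini-Hochberg adjustment over all genes tested. The script was tested on simulated data. The interaction is the TKO response minus the DKO response. Coordinates come from GENCODE vM21 (GRCm38, the same assembly as mm10; 24489 symbols matched) and promoter windows from RefSeq (GRCm38.p6). The 10 genes and the gene lists were chosen with earlier results of these data known. All 10 are named, as are the 10 genes of most similar profile. Genes named from a list come from the up to 4 called per comparison by lowest adjusted p, not all of which are printed. Eif2ak1, Eif2ak4, Hspa5, Ppp1r15b and Stc2 fall outside this rule and were named for their role after their values were seen. TKO libraries with the same replicate number deviated together in the 2 media (r = 0.324, 0.89 and 0.764 for numbers 1 to 3). The model above held no pairing, and the numbers entered as a block only among the alternatives. Regular-medium replicate 1 was closer to low-glucose replicate 3 (r = 0.738) than to replicate 1, and replicate 3 also went with replicate 1 (0.277), while replicate 2 went against the others (-0.82 to -0.325). Deviations from a mean of 3 libraries tend to be negatively related, which was not corrected for. A pairing by number was thus borne out only in part, and the labels do not state it. The block changed no call of the 10 genes. Alternatives were DESeq2 1.42.0 and its size factors, library totals, limma 3.58.1 on log2(TPM + 0.5), other filters, fits on 2 groups, the replicate block and leaving out libraries. Library totals, leaving out both TKO replicate 2 libraries and the blocked TKO fit were added after seeing the data.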

Additional observations from a re-analysis of the deposited data

Results flagged for a closer look

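For 7 of the 10 genes the response to low glucose differed between the lines, by the interaction test in edgeR with the adjusted p values given above. On the log2 scale, the TKO response minus the DKO response was -1.39 for Atf5, -1.34 for Trib3, -1.22 for Nupr1, -1.15 for Chac1, -0.55 for Sesn2, -0.50 for Ddit3 and -0.37 for Atf4. Each of these genes was called higher in low glucose in both lines. Over all genes, 17.6% had a higher and 12.1% a lower response in TKO.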

How the results depend on the processing

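Of 800 values of the fold changes of the 10 genes under the alternatives, 787 kept their direction and their side of the threshold. For Atf4 in TKO the 5 values that lost the call stand beside its result. The sign changed in 5 values, none of them called: Chac1 in regular medium without TKO regular-medium replicate 1 (log2 -0.0041; 0.2714 at most with 1 library left out), Ppp1r15a in regular medium without TKO regular-medium replicate 2 (-0.0533; at most 0.1288) and without both TKO replicate 2 libraries (-0.0517), Ppp1r15a in low glucose without TKO low-glucose replicate 3 (0.0327; -0.2271 at least), and the Ddit4 difference in response without TKO low-glucose replicate 2 (0.0102; -0.1405 at least). In 3 values a call was gained, given beside the results for Ppp1r15a and Atf4. The cause was not tested. Over all genes, 1743 in place of 2632 were called higher in TKO in low glucose on the 2 TKO groups alone, and genes with a lower response in TKO ran from 928 to 1646 with 1 library left out. With the replicate block, 3838 genes were higher and 3788 lower in DKO in low glucose and 2691 and 2271 in TKO, and the block changed no call of the 10 genes; on the 2 TKO groups with the block, Atf4 was called (log2 0.12, adjusted p = 0.0147). Same-numbered libraries did not deviate together in DKO between media (r = -0.018, -0.006 and -0.191) or between the lines. With a pseudocount of 0.1 in place of 0.5, 9 of 40 mean log2 TPM moved by more than 1 SD. The lowest count of a member in a library was 46, for Chac1 in TKO in regular medium.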
